A study of Homo sapiens with 30 samples.

Results

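The genes described here encode the initiation and elongation factors of protein synthesis, and were followed in G401 cells, a line from a malignant rhabdoid tumour that lacks the SWI/SNF chromatin remodelling subunit SNF5. Members were all gene symbols of the PRO-Seq table that begin with EIF1 to EIF6 or with EEF, leaving out the EIF2AK kinases. This rule gave 62 of the 20367 symbols in the table, on 63 of its 20582 transcript rows. The rule works by name, and 7 of the 62 are not translation factors. EIF2C1, EIF2C2, EIF2C3 and EIF2C4 are older symbols of the Argonaute genes, EIF1AD is an eIF1A-domain protein, EEF1DP3 is a pseudogene and EEF1E1-MUTED is a readthrough transcript. The other 55 were counted as translation factors or their regulators, and EIF4A3, of the exon junction complex, was kept with them by its symbol. EIF4A1, which encodes the main eIF4A helicase, was not analysed here.

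G401 cells carried a lentiviral, tetracycline-inducible EGFP, SNF5 or OmoMYC construct and were selected with G418. All groups received doxycycline at 1 µg/ml for 24 h, so the EGFP control shares the vector, the selection and the drug. OmoMYC is an engineered MYC fragment that competes with MYC for MAX and DNA. PRO-Seq, which maps engaged RNA polymerase by run-on, was made from 3 samples of each construct, MYC ChIP-Seq from 2 and ATAC-Seq from 3, and the IgG samples were not analysed here.

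Gene body totals ran from 28444943 to 46957634 reads per PRO-Seq sample. Promoter-proximal totals were more uneven, at 518900 to 672874 reads in replicate 1, 2923648 to 3386528 in replicate 2 and 2027512 to 2538465 in replicate 3. Levels are given as CPM, the reads per 1000000 gene body reads of the sample after scaling between samples, and as CPM per kb where genes are compared with each other. SMARCB1, the gene of SNF5, had 11 gene body reads over the EGFP samples, 11 over the OmoMYC samples and 10777 over the SNF5 samples.

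Initiation begins when eIF2 brings the initiator tRNA to the small ribosomal subunit, which eIF1, eIF1A, eIF3 and eIF5 hold in a scanning form. The eIF4F complex (the cap-binding protein eIF4E, the scaffold eIF4G and the helicase eIF4A) recruits this assembly to the capped end of an mRNA, and the 4E-BP proteins block it by binding eIF4E. During elongation eEF1A delivers aminoacyl-tRNA, the eEF1B subunits recharge eEF1A with GTP, and eEF2 moves the ribosome along. MYC is known for driving genes of protein synthesis, and it binds as a dimer with MAX to the E-box.

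The DNA under the MYC peaks is shown for the bound genes that hold the canonical E-box within 100 bp of the peak summit and lie on the chromosomes printed here. MYC-bound means a peak in each of the EGFP ChIP-Seq samples that overlap each other, with a summit within 1 kb of the listed start. Each window is 30 bases on the strand of the gene, 5′ to 3′, in the GRCh37 (hg19) build, and the capitals mark CACGTG, which reads the same on both strands.
EEF1B2, chr2:207024829-207024858, plus strand, intron: cggggccggggcCACGTGgcgcagcgtgtc
EIF4G1, chr3:184032315-184032344, plus strand, exon: ccctgcgccggtCACGTGggggcgccggct
EIF3A, chr10:120840325-120840354, minus strand, upstream of the gene across its start: ccgcggggaggtCACGTGgctccttccttt
EIF2B5, chr3:183851951-183851980, plus strand, upstream, within the divergent transcript EIF2B5-DT: agtcggaatcgcCACGTGgaaacagctctc
EIF4H, chr7:73588475-73588504, plus strand, upstream of the gene: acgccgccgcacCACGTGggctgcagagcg
EEF1E1-MUTED, chr6:8102529-8102558, minus strand, within EEF1E1: tacccagctcccCACGTGtctgcgccgcta
CACGTG was found within 100 bp of the summit at 8 of the 14 bound members (57.1%), and at 53.2% of all 897 bound regions. Within 500 bp of the listed start it was found at 16 of the 62 members (25.8%), and at 18.6% of all genes in the table. A match is a description of the letters only.

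MYC was found at the starts of genes from most steps of translation in cells expressing EGFP. The bound members were 14 of 62 (22.6%), against 870 of the other 20305 genes (4.28%). They were the eEF1 subunit genes EEF1A1, EEF1B2 and EEF1D, the eIF3 subunit genes EIF3A, EIF3B, EIF3D and EIF3E, the cap-complex genes EIF4G1, EIF4B and EIF4H, the eIF2B exchange factor genes EIF2B1 and EIF2B5, EIF2A and the readthrough EEF1E1-MUTED. EGFP replicate 2 held 5396 peaks and replicate 1 held 940, so the shallower list set the count. With replicate 2 used alone 43 members (69.4%) and 23.0% of the other genes had a peak, with replicate 1 used alone 14 members did, and a reciprocal overlap of at least 50% left 6. The members were also more heavily transcribed than most genes, and the part of that level in their binding share was not tested.

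The strongest peak among the members in EGFP replicate 1 lay at EIF3B, with an 8.73-fold enrichment over the local background in replicate 1 and 12.5-fold in replicate 2. EEF1B2 followed with 8.64-fold and 12.6-fold, EIF2A with 7.69-fold and 10.5-fold, EIF4H with 7.27-fold and 11.8-fold, and EIF4G1 with 7.16-fold and 13.3-fold. The median of the 14 bound members was 6.42-fold in replicate 1 and 8.52-fold in replicate 2, where the medians over all peaks were 5.59-fold and 5.15-fold. These sets are not alike, since bound members needed a peak in both samples. Only 897 of the 5396 peaks of replicate 2 met that rule, so its medians give no trait of the members. At EIF4H the enrichment was high although the PRO-Seq table lists 0 reads for it in every sample, and 12 of the other 15 genes within 500 kb of its start are also listed at 0 throughout.

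In cells expressing SNF5, a peak remained at 4 of the 14 bound starts, those of EEF1A1, EEF1B2, EIF3B and EIF3E. All 4 were in SNF5 replicate 1, which held 137 peaks, and none was in replicate 2, which held 27. The fold enrichment at EIF3B was 7.39 in that sample, at EEF1A1 6.22, at EEF1B2 6.03 and at EIF3E 4.58. Of the other 870 bound genes, 126 (14.5%) had an SNF5 peak. The OmoMYC peak lists held only a placeholder, so no member had a peak with OmoMYC. Peaks were called separately in each sample, and a missing peak says only that the threshold of the caller was not reached.

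**Figure D1:**
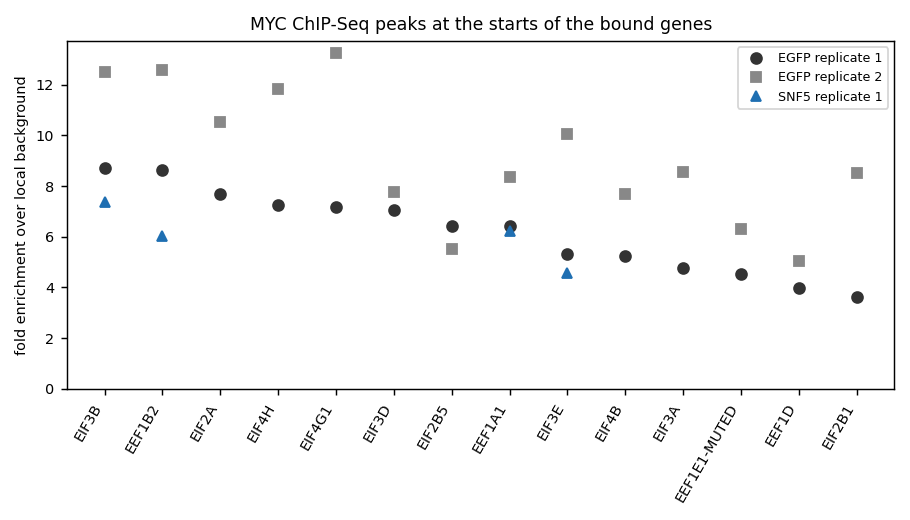
Fold enrichment over local background (y axis) of the MYC ChIP-Seq peak at the start of each of the 14 bound members (x axis) in EGFP replicate 1 (circles), EGFP replicate 2 (squares) and SNF5 replicate 1 (triangles). The highest circle is EIF3B at 8.73, and triangles are present at 4 genes.

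The factors were among the more heavily transcribed genes of the line. The median gene body density of the members with EGFP was 4.22 CPM per kb, against 0.505 over all genes, and 54 of 62 lay above the latter. EEF1A1, which encodes eEF1A, was highest at 64.2 ± 4.95 (SD, n = 3) CPM per kb. EIF4A2, a paralogue of the eIF4A helicase, was close behind at 60.4 ± 6.14 (SD, n = 3), a gap smaller than either spread. EIF1, which governs start codon choice, came next with 41.3 ± 8.54 (SD, n = 3), but its gene body measures only 1.77 kb. EIF5, the GTPase-activating factor, had 24.6 ± 1.43 (SD, n = 3), EEF2 21.8 ± 6.36 (SD, n = 3) and EIF5A 18.3 ± 4.42 (SD, n = 3), and the spreads of EEF2 and its neighbours overlap. EIF4H and EIF5AL1 were listed at 0.

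Gene body transcription of the factors was mostly lower with OmoMYC than with EGFP. Of 59 members tested, 23 fell and 0 rose at an adjusted p under 0.05, where 8.49% of all 15060 genes tested were called, 4.52% as falls and 3.98% as rises (edgeR quasi-likelihood test with the replicate number as a block). No rise was called by DESeq2 either. At an unadjusted p under 0.05, 2 members were higher and 33 lower, and the share of all genes at that threshold was not counted. The median log2 fold change of the members was -0.24, against -0.00 over all genes, and 48 of 59 (81.4%) were below 0, against 50.6% of all genes. Gene body reads were lower than in the same-numbered EGFP sample in all 3 pairs for 39 members, which held for 27.9% of all genes, and 17 members had every OmoMYC sample below every EGFP sample, against 5.56% of all genes. The calls rest on the replicate block and on single replicates. The fit with no replicate block called 0 members (1 gene of all), and the fits without replicate 1 or replicate 2 called 0 (2 genes of all in each). The fit without replicate 3 called 48, as 44 falls and 4 rises, where 45.2% of all genes were called. Every gene body fall of a member with OmoMYC was therefore lost without replicate 1 and without replicate 2.

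With SNF5, 22 of the 59 members fell and 2 rose, where 34.4% of all genes were called, 17.1% as falls and 17.3% as rises. The median log2 fold change was -0.16, against -0.03 over all genes, and 49 of 59 (83.1%) were below 0, against 54.2% of all genes. For 40 members the reads were lower in all 3 same-numbered pairs, as for 32.1% of all genes, and for 14 every SNF5 sample lay below every EGFP sample, as for 8.25% of all genes. Without the block 0 members were called (223 genes of all), and without replicates 1, 2 and 3 the counts were 4, 2 and 42. Of all genes 11.1%, 9.53% and 57.5% were called in those 3 fits. EIF3F and EIF4EBP1 fell whichever replicate was left out, and EIF1 and EIF5A fell without replicate 1 and without replicate 3 but not without replicate 2.

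Falls were also counted among genes of like density. Among the 1904 tested genes with an EGFP density at or above the median of the members, a subset chosen after the values were seen, 18.1% fell with OmoMYC and 39.0% with SNF5. Of these genes 85.4% were below 0 with OmoMYC and 84.9% with SNF5, with median log2 fold changes of -0.18 and -0.20. Of the 31 members at or above that density, 19 (61.3%) fell with OmoMYC and 19 with SNF5, 31 and 29 were below 0, and the medians were -0.30 and -0.26. Below it, 4 of 28 members (14.3%) fell with OmoMYC and 3 (10.7%) with SNF5, where 4.52% and 17.1% of all genes at any density fell. Read depth, transcription level and function move together here, and their parts in the result were not tested.

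**Figure D2:**
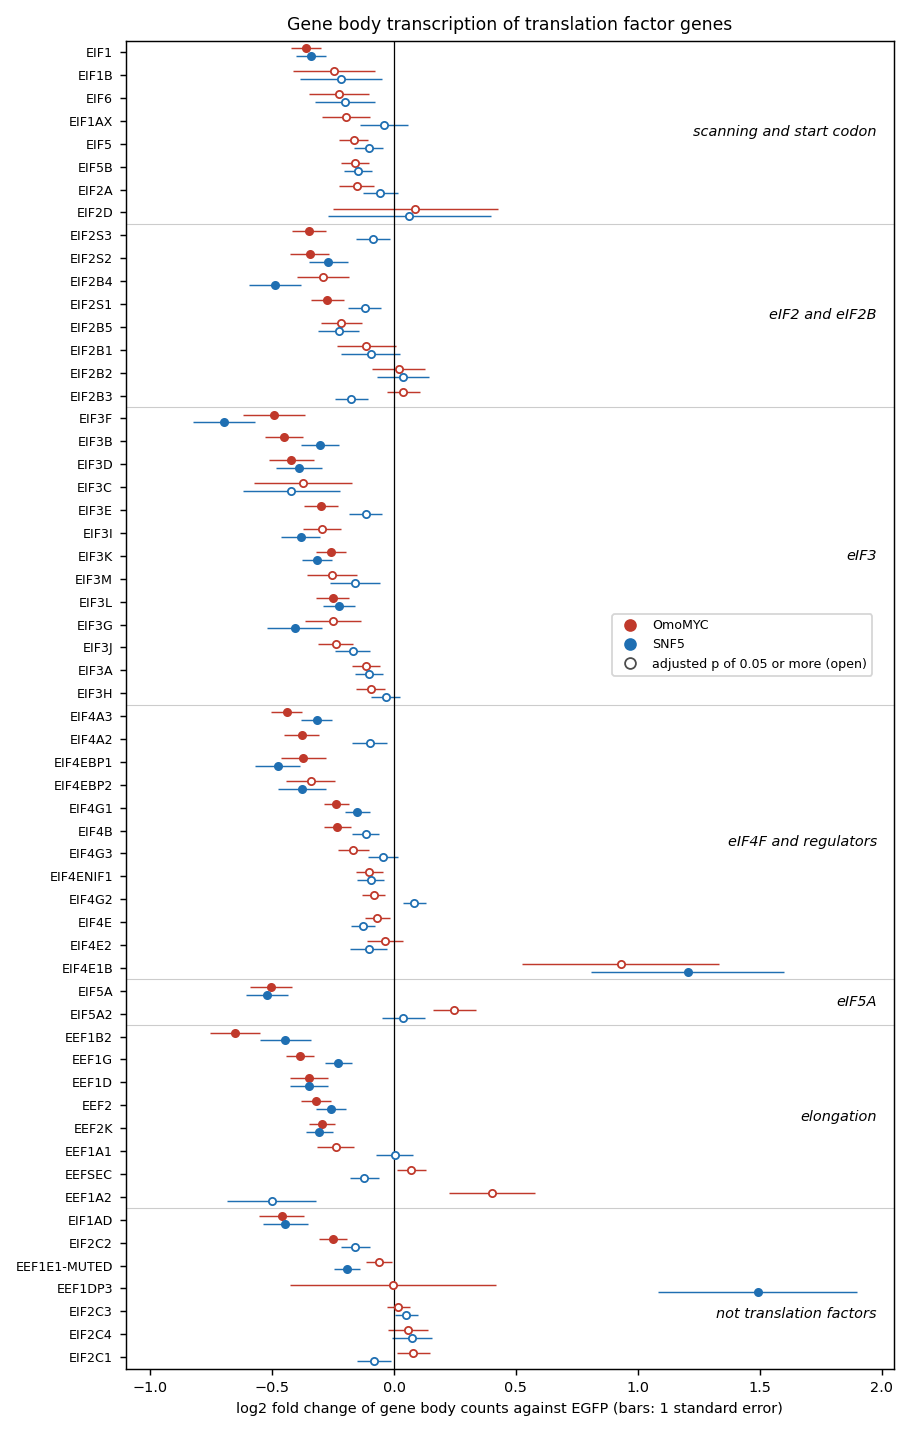
Log2 fold change of gene body counts against EGFP (x axis, bars 1 standard error) for the tested members other than EIF1AY (y axis, grouped by role) with OmoMYC (red) and SNF5 (blue). Filled points passed an adjusted p of 0.05, and the points of all 13 eIF3 genes lie left of 0 for both constructs.

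Both constructs were compared with the same EGFP samples, so their falls are not independent of each other, and the overlap of the lists is given by name only. The 17 members called lower with both were the elongation genes EEF1B2, EEF1D, EEF1G, EEF2 and EEF2K, the eIF3 genes EIF3B, EIF3D, EIF3F, EIF3K and EIF3L, the eIF4 genes EIF4A3, EIF4EBP1 and EIF4G1, and EIF1, EIF1AD, EIF2S2 and EIF5A. EIF2C2, EIF2S1, EIF2S3, EIF3E, EIF4A2 and EIF4B passed the test with OmoMYC alone, and EEF1E1-MUTED, EIF2B4, EIF3G, EIF3I and EIF4EBP2 with SNF5 alone.

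The elongation genes here are the factors and EEF2K, whose kinase acts on eEF2. Of these 8 genes, 5 fell with OmoMYC and 5 with SNF5, where 4.52% and 17.1% of all genes fell. EEF2K was 1 of the falls with each construct. EEF1B2 (chr2:207024318-207027653), which encodes an exchange factor for eEF1A, had 32.0, 43.5 and 30.7 gene body CPM in EGFP replicates 1 to 3. With OmoMYC it had 19.2, 23.5 and 24.1, and with SNF5 23.7, 30.1 and 23.8. Every sample of either construct lay below every EGFP sample. EEF1B2 fell by 0.65 ± 0.10 on the log2 scale (SE, adjusted p = 0.019) with OmoMYC and by 0.45 ± 0.10 (adjusted p = 0.011) with SNF5. It was also 1 of the 4 genes that kept a MYC peak with SNF5.

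EEF2 (chr19:3976054-3985461), which encodes the translocase, had 193, 126 and 231 gene body CPM with EGFP, 138, 103 and 204 with OmoMYC, and 154, 106 and 202 with SNF5. The replicates differed more than the constructs and the groups overlap, but each construct was lower within every same-numbered pair. EEF2 fell by 0.32 ± 0.06 (SE, adjusted p = 0.026) with OmoMYC and by 0.26 ± 0.06 (adjusted p = 0.013) with SNF5. EEF2K, whose kinase inhibits eEF2, fell by 0.29 and 0.31, EEF1G by 0.39 and 0.23, and EEF1D by 0.35 and 0.35 on the log2 scale with OmoMYC and SNF5.

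EEF1A1 (chr6:74225473-74230755) had 296, 275 and 254 gene body CPM with EGFP and 244, 205 and 251 with OmoMYC. All OmoMYC samples were below all EGFP samples, yet the log2 fold change of -0.24 ± 0.08 (SE) missed the threshold (adjusted p = 0.078). With SNF5 the values were 282, 253 and 293, which overlap the EGFP samples, with a log2 fold change of 0.00 ± 0.08 (adjusted p = 0.98). Without replicate 3 it was -0.11 and passed the test as a fall (adjusted p = 0.016). The tissue-restricted paralogue EEF1A2 was far lower, at 5.57, 3.60 and 4.18 CPM with EGFP. It had 7.27, 6.15 and 4.45 with OmoMYC and 3.57, 3.43 and 2.49 with SNF5, so that every SNF5 sample was below every EGFP and every OmoMYC sample.

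The genes of eIF3, the largest initiation factor, all had a log2 fold change below 0 with each construct, with medians of -0.26 over the 13 for OmoMYC and -0.30 for SNF5. The test called 6 falls with OmoMYC and 7 with SNF5, where 4.52% and 17.1% of all genes fell. Of the 13 genes 11 lay at or above the median density of the members, where 85.4% and 84.9% of all genes were below 0. EIF3F (chr11:8008867-8017719) had 98.8, 142 and 134 gene body CPM with EGFP and 66.7, 78.4 and 127 with OmoMYC. With SNF5 it had 67.3, 73.1 and 90.2, all below the EGFP samples, whereas OmoMYC replicate 3 lay within the EGFP range. EIF3F fell by 0.49 ± 0.13 (SE, adjusted p = 0.049) with OmoMYC and by 0.70 ± 0.13 (adjusted p = 0.0040) with SNF5. The OmoMYC value was -0.30 without replicate 2 and -0.72 without replicate 3, and its call was lost with TMM scaling (adjusted p = 0.0501).

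EIF3B (chr7:2394474-2420377), a core eIF3 subunit with the highest MYC enrichment of the members in EGFP replicate 1 though not in replicate 2, had 209, 165 and 146 gene body CPM with EGFP. It had 140, 109 and 127 with OmoMYC, all lower than any EGFP sample, and 167, 124 and 129 with SNF5, which overlap them. EIF3B fell by 0.45 ± 0.08 (SE, adjusted p = 0.023) with OmoMYC and by 0.30 ± 0.08 (adjusted p = 0.016) with SNF5. EIF3A, the largest subunit, is MYC-bound as well, but its log2 fold changes were -0.12 ± 0.06 (SE, adjusted p = 0.21) and -0.10 ± 0.06 (adjusted p = 0.20). Its gene body CPM values were 327, 330 and 324 with EGFP, 306, 282 and 318 with OmoMYC, and 319, 280 and 317 with SNF5, with no overlap for either construct. EIF3C has near-identical copies on chromosome 16, each with its own row, and its values are uncertain for that reason.

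The eIF4F genes and their regulators were grouped by EIF4 symbols, which takes in EIF4A3 of the exon junction complex. Of these 14 genes 12 were tested, with 5 falls with OmoMYC and 4 falls and 1 rise with SNF5. EIF4A3 was 1 of the falls with each construct. Of all genes 4.52% fell with OmoMYC, and 17.1% fell and 17.3% rose with SNF5. EIF4A3 (chr17:78109013-78120982), which encodes the helicase of the exon junction complex, had 57.3, 56.8 and 60.9 gene body CPM with EGFP. It had 40.8, 40.01 and 48.3 with OmoMYC and 46.1, 45.5 and 48.7 with SNF5, all lower than any EGFP sample. EIF4A3 fell by 0.44 ± 0.06 (SE, adjusted p = 0.015) with OmoMYC and by 0.32 ± 0.06 (adjusted p = 0.0056) with SNF5.

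EIF4EBP1, which encodes the inhibitor 4E-BP1, had 48.2, 53.9 and 47.9 gene body CPM with EGFP, 38.5, 37.3 and 39.7 with OmoMYC, and 37.7, 40.1 and 30.4 with SNF5. Neither construct overlapped EGFP, and the falls were 0.37 ± 0.09 (SE, adjusted p = 0.043) and 0.48 ± 0.09 (adjusted p = 0.0049) on the log2 scale. EIF4G1, the scaffold, fell by 0.24 ± 0.05 (SE, adjusted p = 0.032) and 0.15 ± 0.05 (adjusted p = 0.048). EIF4E, the cap-binding protein that 4E-BP1 holds, had log2 fold changes of -0.07 ± 0.05 (SE, adjusted p = 0.41) and -0.13 ± 0.05 (adjusted p = 0.082). Its gene body CPM values were 213, 218 and 202 with EGFP, 208, 196 and 200 with OmoMYC, and 198, 198 and 184 with SNF5.

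EIF5A (chr17:7210318-7215782), whose product carries hypusine and helps the ribosome past difficult sequences, had 59.3, 96.7 and 88.7 gene body CPM with EGFP. It had 42.5, 65.1 and 64.5 with OmoMYC and 48.4, 65.3 and 54.3 with SNF5, lower in every same-numbered pair although EGFP replicate 1 lies among the construct values. EIF5A fell by 0.50 ± 0.09 (SE, adjusted p = 0.023) and by 0.52 ± 0.09 (adjusted p = 0.0025). The paralogue EIF5A2 had log2 fold changes of 0.25 (adjusted p = 0.11) and 0.04 (adjusted p = 0.77).

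For the next role groups too, the shares of all genes that fell were 4.52% with OmoMYC and 17.1% with SNF5. Of the 9 scanning and start codon factors, EIF1 was the member that passed the test, with falls of 0.36 ± 0.06 (SE, adjusted p = 0.023) with OmoMYC and 0.34 ± 0.06 (adjusted p = 0.0038) with SNF5. Its gene body CPM values were 57.8, 88.1 and 73.6 with EGFP, 46.5, 63.6 and 59.9 with OmoMYC, and 47.9, 64.1 and 60.5 with SNF5. EIF6, which keeps the ribosomal subunits apart, had log2 fold changes of -0.22 (adjusted p = 0.26) and -0.20 (adjusted p = 0.23). Among the eIF2 and eIF2B genes all 3 eIF2 subunits fell with OmoMYC, EIF2S1 by 0.27 (adjusted p = 0.044), EIF2S2 by 0.35 and EIF2S3 by 0.35, with EIF2S2 at -0.21 without replicate 2. With SNF5, EIF2S2 fell by 0.27 (-0.17 without replicate 2) and the eIF2B subunit gene EIF2B4 by 0.49 ± 0.11 (SE, adjusted p = 0.0080), and EIF2B4 was at 28.0, 37.5 and 28.1 CPM with EGFP and 19.7, 22.1 and 24.5 with SNF5. EIF1AD fell by 0.46 with OmoMYC and 0.45 with SNF5, but is counted here by its name only.

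**Figure D3:**
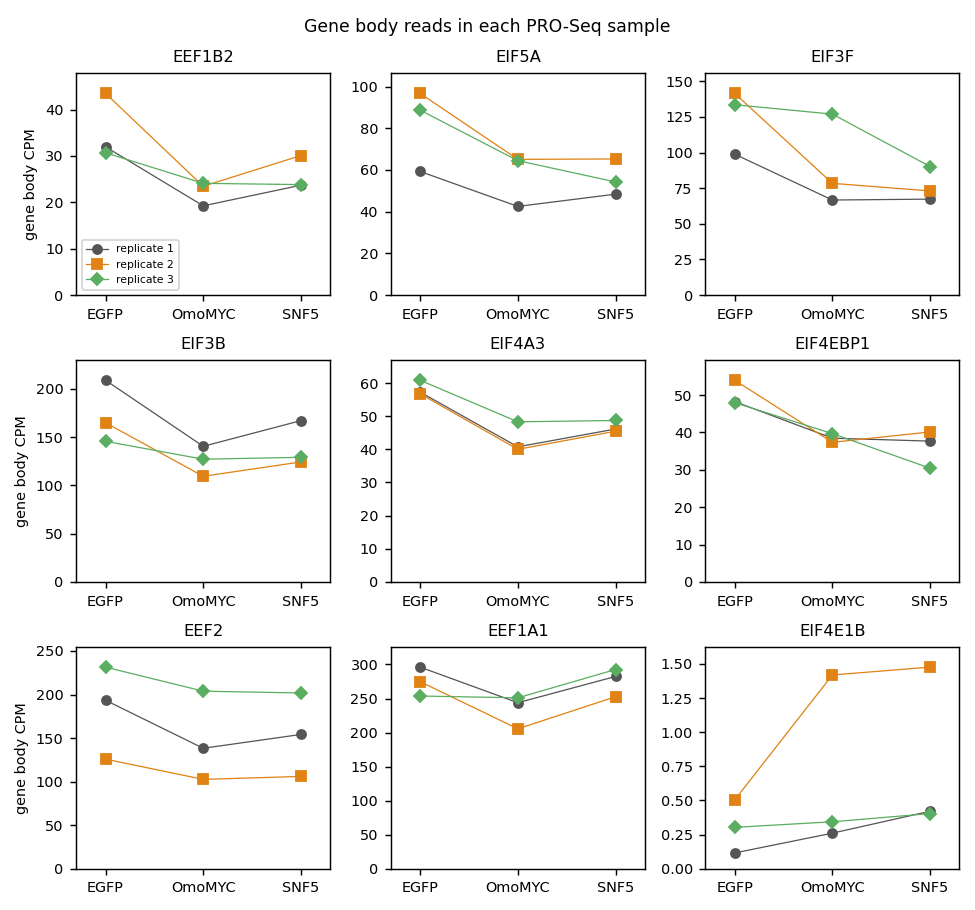
Gene body CPM (y axis, starting at 0) of 9 members in each PRO-Seq sample, by construct (x axis), with lines that join samples of the same replicate number. In EEF1B2, EIF4A3 and EIF4EBP1 all OmoMYC and SNF5 points lie below all EGFP points.

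The rises with SNF5 concerned genes with few reads. The pseudogene EEF1DP3 had 0.667, 0.706 and 0.606 gene body CPM with EGFP and 1.83, 4.12 and 0.718 with SNF5, a log2 fold change of 1.49 ± 0.41 (SE, adjusted p = 0.021). EIF4E1B, a germline paralogue of eIF4E, had 0.116, 0.504 and 0.303 with EGFP and 0.421, 1.48 and 0.404 with SNF5, a log2 fold change of 1.204 ± 0.40 (adjusted p = 0.042). These rest on 399 and 188 reads over all 9 samples, and replicate 2 was the highest SNF5 sample in both. Without replicate 2 the log2 fold changes were 0.89 and 0.99, and without replicate 1 they were 1.49 and 0.99. Neither was called without replicate 1, without replicate 2 or with the OmoMYC samples left out (adjusted p = 0.069 and 0.097).

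SNF5 and OmoMYC differed directly at 5 of the 59 members, of which 4 were higher and 1 lower with SNF5, where 19.0% of all genes were called, 11.4% as higher and 7.56% as lower. EEF1A2 was lower with SNF5 than with OmoMYC by a log2 fold change of -0.90 ± 0.18 (SE, adjusted p = 0.0092). EIF4A2 was higher with SNF5 by 0.28 ± 0.07 (adjusted p = 0.027), EIF2S3, the gamma subunit of eIF2, by 0.26 ± 0.07 (adjusted p = 0.029) and EIF4G2, an eIF4G relative that lacks eIF4E binding, by 0.17 ± 0.05 (adjusted p = 0.038). EEF1DP3 was higher by 1.49 ± 0.41 (adjusted p = 0.033), and by 0.99 without replicate 2. EIF4A2 had 309, 359 and 297 gene body CPM with EGFP, 242, 243 and 255 with OmoMYC and 312, 293 and 294 with SNF5, so that the OmoMYC samples stand below the others. For EIF2S3 the values were 120, 120 and 112, then 89.0, 88.3 and 99.0, then 117, 109 and 106, in the same order. The count was 11 with DESeq2, 0 with no replicate block and 0, 0 and 25 without replicates 1, 2 and 3. In these fits 27.5%, 0.498%, 5.39%, 4.93% and 42.0% of all genes were called, in the same order.

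Of the tested members 13 were bound by MYC and 46 were not. With OmoMYC the medians of the gene body log2 fold change were -0.24 for both, and 7 bound and 16 unbound members fell. With SNF5 the medians were -0.15 and -0.16, and 6 and 16 fell. Among all other genes, 18.9% of the 825 bound and 3.53% of the 14176 unbound genes fell with OmoMYC, and 42.5% and 15.5% with SNF5. Many unbound members had a peak in EGFP replicate 2 alone. Of those 29, 14 fell with OmoMYC and 13 with SNF5, while of the 17 tested members with no MYC peak in either EGFP sample 2 and 3 fell. Among the other genes, 7.32% of those with a peak in a single EGFP sample and 2.22% of those with none fell with OmoMYC, and 27.0% and 11.5% with SNF5. At or above the median density of the members lay 18 of the 29 and 4 of the 17, and the part of density in this contrast was not tested.

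Near the start site fewer members passed the test. The promoter-proximal count was taken from the busiest 50 bp window in the 500 bp on either side of the start, and 54 members had enough reads. With OmoMYC 1 member fell, EIF4A3, where 1.75% of 11241 genes were called and 0.169% fell. Its promoter-proximal CPM values were 1.48, 4.40 and 2.82 with EGFP and 0.898, 2.74 and 1.36 with OmoMYC, lower in each same-numbered pair although the groups overlap, a fall of 0.83 ± 0.23 on the log2 scale (SE, adjusted p = 0.049). The call was lost whichever replicate was left out. The median of the members was 0.05, against 0.12 over all genes, and scaling the promoter-proximal counts on themselves moved these to -0.11 and -0.03, which turns the direction of the members' median.

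With SNF5 3 members fell in the promoter-proximal window, where 4.30% of all genes were called and 1.67% fell. EIF4ENIF1 (chr22:31835345-31885874) encodes 4E-T, which binds eIF4E and carries it to the nucleus and to P-bodies. It had 0.667, 8.13 and 3.03 CPM with EGFP and 0.471, 2.40 and 1.62 with SNF5, and fell by 1.17 ± 0.26 (SE, adjusted p = 0.0062), or by 0.75 without replicate 2. EIF3I, an eIF3 subunit gene, had 1.91, 16.4 and 13.1 with EGFP and 1.41, 9.19 and 5.41 with SNF5, and fell by 0.90 ± 0.22 (adjusted p = 0.013). EIF3F had 1.91, 33.5 and 25.1 with EGFP and 1.36, 20.8 and 12.3 with SNF5, and fell by 0.77 ± 0.23 (adjusted p = 0.045). In all 3 genes SNF5 was lower in each pair, and replicate 1, with the smallest promoter-proximal total, was the lowest of each construct. The part of that depth in the result was not tested. The count was 7, 0 and 1 without replicates 1, 2 and 3, 0 with no replicate block and 6 when the window was scaled on its own counts. In these fits 8.73%, 0.427%, 5.41%, 0.00% and 9.26% of all genes were called, in the same order.

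The pausing index divides the promoter-proximal read density by the gene body density, and its change shows how both regions move against each other. With OmoMYC the index was higher in 42 of 54 members and in 66.5% of all genes, with a median log2 change of 0.32 against 0.14 over all genes. When each region was scaled on its own these medians were 0.17 and -0.01, and without replicate 2 the median of the members was 0.20. EEF1A1 was the member that passed the test, where 2.26% of 11171 genes were called, 2.18% as rises. Its log2 index was 2.16, 4.18 and 3.01 with EGFP and 2.29, 5.35 and 4.42 with OmoMYC, higher in each pair, with a log2 change of 0.92 ± 0.22 (SE, adjusted p = 0.013). Scaled by region the change was 0.74 and the call was lost, as it was without replicate 2.

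With SNF5 the index of EEF1A1 was 2.13, 5.54 and 3.85, higher in replicates 2 and 3 but not in replicate 1, a log2 change of 0.73 ± 0.22 (SE, adjusted p = 0.041). The index of EIF4ENIF1 was 2.62, 6.54 and 4.83 with EGFP and 2.19, 4.87 and 4.06 with SNF5, lower in each pair, a log2 change of -1.07 ± 0.26 (adjusted p = 0.012). Of all genes 3.66% were called, 2.02% as rises and 1.64% as falls. The median of the 54 members was 0.06 against 0.01 over all genes. Without replicate 2 neither call remained, with log2 changes of 0.41 and -0.65, and without replicate 1 the change of EEF1A1 was 1.102. The EEF1A1 call was also lost without replicate 3, with DESeq2 and with the constructs compared without the OmoMYC samples.

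Between SNF5 and OmoMYC, edgeR called 0 members in the promoter-proximal window (0.836% of all genes) and 0 in the pausing index (1.23%), and DESeq2 called 0 in each. At an unadjusted p under 0.05, 1 member was higher and 9 were lower in the window, and 0 were higher and 9 lower in the index. The share of all genes at that threshold was not counted, so these counts give no trait of the members. In the window 71.8% of all genes were below 0. The index was lower with SNF5 in 45 of 54 members and in 66.6% of all genes, with a median of -0.23 against -0.13 over all genes.

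**Figure D4:**
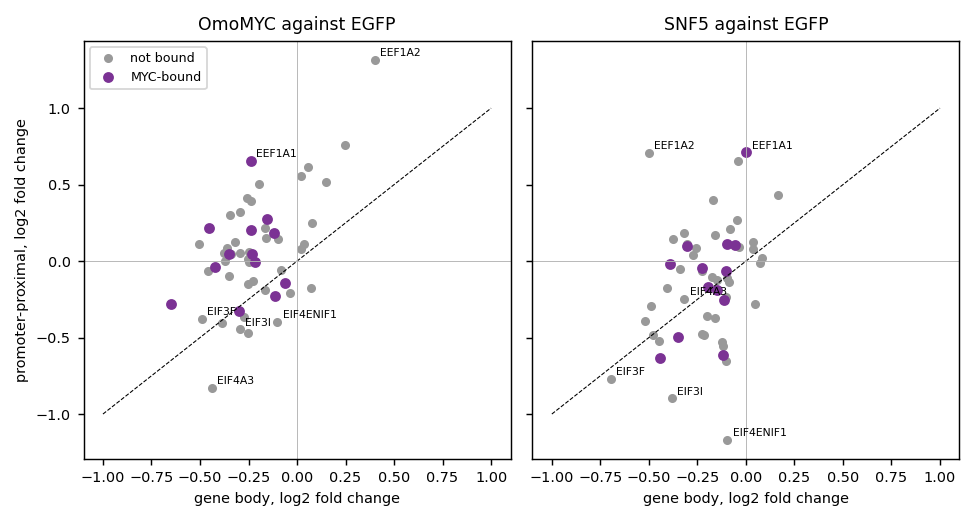
Log2 fold change of promoter-proximal counts (y axis) against that of gene body counts (x axis) for the 54 members tested in both regions, with OmoMYC (left) and SNF5 (right), MYC-bound members in purple and a dashed line where both changes are equal. Points above the line have a higher pausing index, as for 42 members with OmoMYC, and EEF1A1 lies above it in both panels.

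Open chromatin at the starts was mapped by ATAC-Seq in the GRCh38 build, in which 52 members had a start of the same name. An ATAC peak lay within 1 kb of a start at 41, 47 and 32 members in the EGFP samples, 32, 47 and 35 in the OmoMYC samples, and 47, 47 and 42 in the SNF5 samples. Of the other genes 45.6%, 52.3% and 37.9% had one with EGFP, 34.9%, 55.8% and 42.2% with OmoMYC, and 59.4%, 56.8% and 52.7% with SNF5. Among the members 28 had a peak in all 9 samples and 5 (EEF2, EIF2C4, EIF3C, EIF4E1B and EIF5AL1) in none. The mean difference from EGFP was -2.0 members with OmoMYC (exact two-sided permutation test, p = 1.0) and 5.33 with SNF5 (p = 0.40), where 3 against 3 samples allow no p below 0.10. The number of peaks ran from 7260 to 33596 per sample. When each list was cut to its 7260 best peaks the SNF5 difference was -4.0 (exact permutation test, p = 0.10), so its direction depends on the length of the lists. With lists of that length the other genes lay at 32.1% to 32.8% with EGFP and 28.8% to 31.8% with SNF5, so they too were higher with SNF5 in the full lists and lower in the shortened ones.

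Other genes of translation, which the name rule does not take, were counted from a separate list. Of its 43 genes tested, 5 fell and 1 rose in the gene body with OmoMYC, and 11 fell and 2 rose with SNF5. Over all genes 4.52% fell and 3.98% rose with OmoMYC, and 17.1% and 17.3% with SNF5. ATF4, the transcription factor translated when eIF2 is phosphorylated, fell by 0.43 and 0.26 on the log2 scale, PPP1R15A, which directs a phosphatase to eIF2, by 0.41 and 0.28, and the ribosome recycling gene DENR by 0.29 and 0.30, with OmoMYC and SNF5. MKNK1, whose kinase phosphorylates eIF4E, rose by 0.31 and 0.28. In the promoter-proximal window 1 gene fell and 1 rose with OmoMYC, and 2 fell with SNF5, where 1.75% and 4.30% of all genes were called. TUFM, the mitochondrial counterpart of eEF1A, fell there by 1.14 ± 0.22 (SE, adjusted p = 0.0040) with OmoMYC and by 1.22 ± 0.22 (adjusted p = 0.00045) with SNF5. PABPC1, the poly(A)-binding protein gene, rose there by 0.80 with OmoMYC, and DHPS fell by 0.76 with SNF5. The pausing index rose at 2 genes with OmoMYC, where 2.26% of all genes were called. These were PABPC1, by 1.05 ± 0.21 (SE, adjusted p = 0.0030), and DDX3X, by 0.88. Values with a replicate left out are not given for this list.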

How the data were processed

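PRO-Seq values were counts deposited by the authors, who trimmed adapters, kept reads over 15 bp, aligned them to hg19 with Bowtie2, removed rRNA loci and mapping qualities under 10, and counted reads with NRSA in a 50 bp promoter-proximal window and in the gene body from 1 kb after the start. The deposited peak tables give MACS2 fold enrichment (a ratio) and -log10 q per peak, called per sample at q 0.01 (MYC, hg19) and 0.001 (ATAC, hg38), with pileup signal.

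For each symbol the row with most gene body reads was used. Counts with a mean of at least 10 per sample were tested with edgeR 4.0.16 (R 4.3.3), with gene body totals and RLE factors as scaling, in all 9 samples with the replicate number as a block, as the study's methods account for batch. The pausing index was tested as the interaction of region and construct. Adjusted p-values (Benjamini-Hochberg) cover all genes tested. Per-sample gene body CPM used the same scaling. It centres gene body changes over all genes near 0, so a change common to all genes would not be seen. DESeq2 1.42.0 and the other alternatives are given in the closing section. The replicate numbers pair the samples: deviations from the group means correlated at 0.753 to 0.882 between same-numbered gene body samples and at -0.668 to 0.126 between others. The study describes replicates as independent experiments, but the labels do not, and p-values measure the spread between these samples. The code was tested on simulated data.

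Named genes were the members called (the 6 largest rises and falls where over 12 were called), 12 listed factors, the 5 strongest MYC peaks with those holding an SNF5 peak, and the highest and lowest density. Members and lists were chosen with earlier results of these data known. Other genes are named in counts, and some carry values although the rules did not pick them. These include EEF2K, EEF1G, EEF1D, EIF2S2, EIF5A2 and genes of the separate translation list. Python 3.11.15 and SciPy 1.17.1 were used. Sequences were read from GRCh37 with GENCODE annotation. Counting intervals were not computed for peaks, whose number limits the precision. In bulk samples of 1 cell line, a change in every cell and a change in part of the cells cannot be told apart.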

Additional observations from a re-analysis of the deposited data

How the results depend on the processing

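In the gene body, TMM scaling, DESeq2, other count filters and the fits with the 2 constructs compared gave 20 to 31 called members against EGFP. The main fit gave 23 with OmoMYC and 24 with SNF5. Of all genes 7.57% to 21.7% were called with OmoMYC in these alternatives and 24.8% to 42.0% with SNF5, beside 8.49% and 34.4% in the main fit. The fit with no replicate block called 0 members in all 9 comparisons of construct and region, where 0.00% to 1.48% of all genes were called. The lists rest on that block. Leaving out each replicate gave 0 to 48 called members for OmoMYC against EGFP, where 0.0132% to 45.2% of all genes were called. For SNF5 against EGFP it gave 2 to 42, where 9.53% to 57.5% of all genes were called. For SNF5 against OmoMYC it gave 0 to 25, where 4.93% to 42.0% were called, beside 5 members in the main fit and 11 with DESeq2. In the promoter-proximal window it gave 0 to 1, 0 to 7 and 0 to 1 in the same order. Of all genes 0.0273% to 7.68%, 0.427% to 8.73% and 0.182% to 4.60% were called there. In the pausing index it gave 0 to 8, 0 to 3 and 0 to 1, where 0.00% to 8.61%, 0.0365% to 5.45% and 0.0548% to 4.37% of all genes were called. Scaling the window on its own counts gave 6 for SNF5 (9.26% of all genes), and scaling each region on its own gave 0 for the OmoMYC pausing index (1.65%). For the SNF5 pausing index DESeq2 and the fit of the 2 constructs compared each gave 1, where 2.26% and 1.57% of all genes were called. The cause was not tested for any of these. MYC-bound members numbered 6 with a reciprocal overlap of at least 50% and 14 to 43 with 1 EGFP replicate left out, and without SNF5 replicate 1 no bound member (0) kept a peak (0 to 4 with either left out). The ATAC difference for SNF5 turned to -4.0 with 7260 peaks taken from every sample. EEF1A1 in the gene body with SNF5, at 0.00, was -0.106 to 0.0819 with a replicate left out, and -0.106 passed the test. Of 391 values of named genes under alternatives, this 1 turned its direction, 107 lost their call, 10 others gained one and 273 stayed on their side of the threshold. The shallow promoter-proximal totals of replicate 1 limit the depth there.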
